A study of Mus musculus with 4 samples.

Results

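The genes described here are the mouse enzymes that oxidise or reduce aldehydes, alcohols and ketones. They are the genes whose symbol starts with Aldh, Akr, Adh and a digit, Dhrs, Cbr and a digit, Hsd11 or Hsd17, with Aldh4a1, Aldh18a1, Hsd11b2, Hsd17b4 and Hsd17b7 left out. This gave 44 of the 11489 genes analysed, with 14 aldehyde dehydrogenases, 11 aldo-keto reductases, 3 alcohol dehydrogenases, 10 short-chain dehydrogenases of the Dhrs and Cbr families and 6 hydroxysteroid dehydrogenases. All 44 had a mean of at least 1 FPKM (fragments scaled to transcript length and library size) and entered the test, as did 11103 genes in total. Total RNA was sequenced from ileum, the last segment of the small intestine, of 8-week-old wild-type C57BL/6J mice. Both groups received 3 intraperitoneal injections 8 h apart, and tissue was taken 8 h after the last one. One group received vehicle, labelled DMSO, and the other received 40 mg/kg pregnenolone-16α-carbonitrile (PCN) dissolved in DMSO and corn oil, with 2 libraries in each group. A synthetic steroid, PCN activates the pregnane X receptor (PXR, encoded by Nr1i2), and the series was made to look for its target genes. The labels do not say whether a library came from 1 mouse or from a pool. The p-values therefore rest on the spread between 2 libraries a group, moderated by the fit across all genes, and not on a known number of mice.

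FPKM summed to between 481925 and 550832 per library, and read numbers were unknown. The tissue label was checked with Fabp6, the bile acid binding protein of ileal enterocytes, which was at 8059 and 6757 FPKM in vehicle replicates 1 and 2 and at 4228 and 3652 FPKM in PCN replicates 1 and 2. Markers of the epithelium differed between the groups. Of 7 ileal enterocyte markers 4 were lower in PCN at an unadjusted p under 0.05 and 0 past the adjusted threshold, and the list summed to 9193, 7687, 5141 and 4451 FPKM in the same order. Of 15 enterocyte markers 6 were lower and 1 higher at an unadjusted p under 0.05, with 1 past the adjusted threshold, the fatty acid binding protein Fabp2 (50.5, 46.8, 9.45 and 12.3 FPKM, log2 difference -2.08, adjusted p = 0.040). The 15 summed to 10368, 9972, 9814 and 9824 FPKM. Markers of more proximal small intestine went both ways. Of 6, 4 had a positive log2 difference and 2 a negative one (down to -0.65), both lower in both PCN libraries than in both vehicle libraries. At an unadjusted p under 0.05 2 were higher and 0 lower. Among the higher was Fabp1 (12.0, 11.5, 25.4 and 20.99 FPKM, log2 difference 0.92, adjusted p = 0.114), which is also the 1 higher enterocyte marker. The 6 summed to 108, 107, 148 and 122 FPKM. The part of these shifts in the members' differences was not tested. Of 15 reference genes of the PXR response 15 had a positive log2 difference, as did 5617 of all 11103 genes. Both PCN libraries were above both vehicle libraries for 14 of them, against 21.1% of all genes. This list holds B3galt5, which the study took up from its own RNA sequencing under PCN, so it is not a separate check. Vehicle replicate 2 stood apart. Its 9 alpha-defensin genes took 12.9% of FPKM against 5.33% to 5.84% in the other 3 libraries. All 9 were above 0 in vehicle replicate 2, but only 5 in each other library. The 5 tested Paneth cell markers summed to 9750, 10309, 10681 and 9932 FPKM in the same order. The 12 smooth muscle markers of vehicle replicate 2 summed to 956 FPKM against 469 in vehicle replicate 1 and 269 and 339 in PCN replicates 1 and 2. All 12 smooth muscle markers had a negative log2 difference (median -0.94), with 10 lower in both PCN libraries than in both vehicle libraries, 9 with an unadjusted p under 0.05 and 0 past the adjusted threshold in limma. Adipocyte markers (5 tested of 8 listed) summed to 43.3, 119, 36.2 and 51.9 FPKM in the same order. Less tissue of a kind and less RNA per cell cannot be told apart in bulk RNA. Of 8 hepatocyte markers only Ttr (1.99 to 3.43 FPKM) and of 8 pancreatic acinar markers only Cela1 (0.964 to 1.29 FPKM) were among the genes analysed.

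Aldehydes and ketones reach the gut epithelium from food, drugs and microbes, and arise in cells from lipid peroxidation, ethanol, steroids and vitamin A. Aldehyde dehydrogenases oxidise aldehydes to acids and use NAD or NADP. Aldo-keto reductases and most short-chain reductases run in the opposite sense and turn carbonyls into alcohols with NADPH, while alcohol dehydrogenases interconvert alcohols and aldehydes with NAD. Members of these families pass vitamin A from retinol through retinal to retinoic acid, and hydroxysteroid dehydrogenases switch steroid hormones between active and inactive forms. PXR is best known for inducing cytochrome P450, conjugation and transport genes in liver and gut.

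Members lay on both sides of 0. The total over all members was 2019 (vehicle 1), 1936 (vehicle 2), 2026 (PCN 1) and 1842 (PCN 2) FPKM, and these ranges overlap. The log2 difference, PCN minus vehicle on the log2(FPKM + 1) scale, was positive for 21 members and negative for 23, with a median of -0.03 against 0.00 over all 11103 genes. Both medians are smaller than the spread of the members' median between libraries of a group (SD 0.06, n = 2 per group). No member passed an adjusted p of 0.05 by limma with Benjamini-Hochberg adjustment over all genes, where 0.135% of all genes did. At an unadjusted p under 0.05, 6 members (13.6%) were higher in PCN against a background of 5.25% of all genes, and 2 members (4.55%) were lower against 4.11%. Both PCN libraries lay above both vehicle libraries for 13 members (29.5%, background 21.1%) and below them for 12 (27.3%, background 19.1%), and the groups overlapped for 19. A log2 difference past 0.5 in either direction was found for 7 members (15.9%, background 8.5%), and 26 members lay within 0.2 of 0. With 2 libraries a group an exact permutation test cannot give a two-sided p under 0.333, so single genes rest on the fit across all genes.

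**Figure D1:**
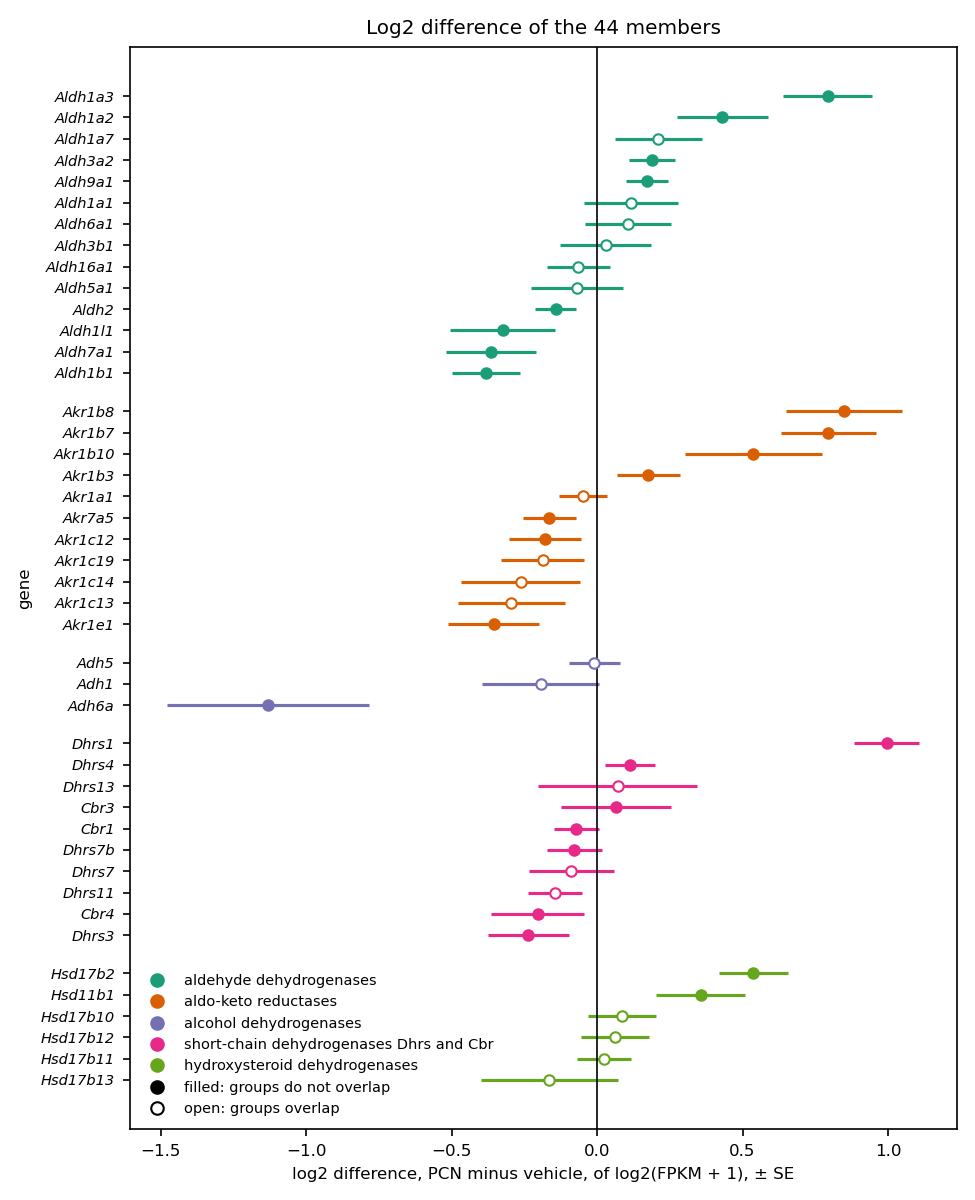
Log2 difference, PCN minus vehicle, of log2(FPKM + 1) for each of the 44 members, ordered by size within 5 families named in the legend, with bars for the standard error of the fit (n = 2 libraries per group). Filled points mark members whose groups do not overlap. Dhrs1 is at the right (1.00), Adh6a at the left (-1.13), and 26 of the 44 points lie within 0.2 of 0.

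The 6 higher members were Dhrs1, Akr1b8, Akr1b7, Aldh1a3, Hsd17b2 and Aldh1a2, and the 2 lower ones were Aldh1b1 and Adh6a. In all 8 the vehicle and PCN libraries did not overlap, which choosing genes by p favours. Over all genes both PCN libraries lay above both vehicle libraries for 21.1% and below them for 19.1%. None of the 8 passed the adjusted threshold, and their log2 differences are therefore given as values with their errors.

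**Figure D2:**
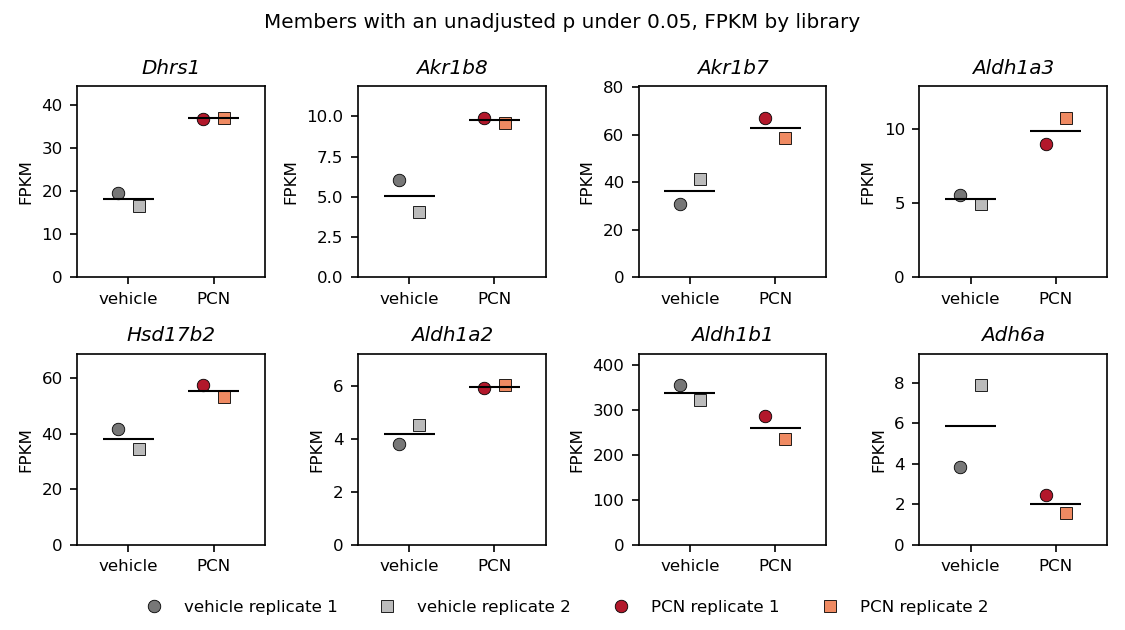
FPKM in each of the 4 libraries for the 8 members with an unadjusted p under 0.05, with vehicle and PCN on the x axis, FPKM from 0 on the y axis, circles for replicate 1, squares for replicate 2 and lines for group means. In each panel both PCN libraries lie on one side of both vehicle libraries. Adh6a in vehicle, at 3.84 and 7.88 FPKM, has replicates far apart for its level.

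Dhrs1, a short-chain dehydrogenase whose human counterpart reduces carbonyl groups of steroids and foreign compounds, stood closest to the threshold. It was at 19.6 and 16.5 FPKM in vehicle replicates 1 and 2 and at 36.7 and 37.0 FPKM in PCN replicates 1 and 2. Both PCN libraries were thus about the same, and each was above both vehicle libraries. The ratio of group means was 2.04, from 18.0 ± 2.17 to 36.8 ± 0.210 FPKM (SD, n = 2). The log2 difference was 1.00 (SE 0.11, 95% confidence interval 0.71 to 1.28), with an unadjusted p of 0.000304 and an adjusted p of 0.070 by limma. It ranked 47 of 11103 genes by p and 101 by log2 difference. Without vehicle replicate 2 the log2 difference was 0.88. Its side of the threshold depended on settings that leave the values as they are. With genes under a mean of 5 FPKM left out the adjusted p was 0.030 and with a replicate block it was 0.048, while over all 14 alternatives it ran from 0.030 to 0.545.

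Dhrs1 lies on the minus strand of chromosome 14 (GENCODE annotation of GRCm38, chr14:55739020-55745690), with 9 exons of which 8 are coding. A single transcript carried all of its FPKM. Nop9, a ribosome biogenesis gene, starts 3 bases beyond it on the opposite strand, so that both genes are transcribed away from a shared start region. Nop9 was at 7.57, 5.49, 6.33 and 7.22 FPKM in vehicle replicates 1 and 2 and PCN replicates 1 and 2, with overlapping groups and a log2 difference of 0.06 (SE 0.19). The closest measured gene on the other side, Rabggta, a subunit of the enzyme that prenylates Rab proteins, was at 7.91, 6.48, 11.2 and 9.75 FPKM (log2 difference 0.49, SE 0.15, unadjusted p = 0.025, adjusted p = 0.438). Dhrs1 and Rabggta were therefore above vehicle in both PCN libraries and Nop9 was not. The start region is printed because 1 of its 2 genes was above vehicle in both PCN libraries and the other was not, a difference between genes that was not tested. It covers 250 bases before to 50 bases after the annotated start (RefSeq, GRCm38.p6, minus strand, chr14:55745635-55745934), is 74.3% G or C, and held none of the motifs searched (listed further on).
Dhrs1: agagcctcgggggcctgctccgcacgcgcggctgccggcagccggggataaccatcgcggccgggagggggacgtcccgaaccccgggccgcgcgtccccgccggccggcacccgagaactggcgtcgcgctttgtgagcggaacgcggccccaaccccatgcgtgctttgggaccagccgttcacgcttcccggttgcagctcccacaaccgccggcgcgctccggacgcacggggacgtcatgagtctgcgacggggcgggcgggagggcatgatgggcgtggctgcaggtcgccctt

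The Akr1b genes, which encode aldose reductase and its relatives, lie side by side within 121 kb of chromosome 6 (chr6:34302434-34423142). All 4 were above both vehicle libraries in both PCN libraries, against 21.1% of all genes. Close copies among them may share reads, so these are not 4 separate cases. Akr1b8, a reductase of lipid aldehydes, was at 6.07 and 4.06 FPKM in vehicle and at 9.91 and 9.62 FPKM in PCN (log2 difference 0.85, SE 0.20, unadjusted p = 0.008, adjusted p = 0.285). Akr1b7, known as the vas deferens protein and able to reduce the isocaproaldehyde released in steroid synthesis, was at 30.8 and 41.6 FPKM in vehicle and at 67.2 and 58.8 FPKM in PCN (0.79, SE 0.16, unadjusted p = 0.005, adjusted p = 0.220). The ratios of group means were 1.93 for Akr1b8 and 1.74 for Akr1b7. Akr1b10 was the lowest of the 4, at 1.91 and 1.09 FPKM in vehicle and at 2.50 and 2.66 FPKM in PCN (0.54, SE 0.24, unadjusted p = 0.072). Its difference was 0.30 without vehicle replicate 2 and 0.10 with the smooth muscle level as a covariate. Akr1b3, aldose reductase itself, which turns glucose into sorbitol, was at 11.04 and 10.73 FPKM in vehicle and at 12.3 and 12.6 FPKM in PCN (0.18, SE 0.11, unadjusted p = 0.168). Summed over the 4 genes, FPKM were 49.9 and 57.4 in vehicle and 91.9 and 83.7 in PCN. The order of levels, Akr1b7 over Akr1b3 over Akr1b8 over Akr1b10, held in every library.

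Beyond Akr1b7 the next measured gene, Bpgm, which makes 2,3-bisphosphoglycerate in red cells, was also above vehicle in both PCN libraries (34.4 and 34.2 against 40.5 and 39.5 FPKM, log2 difference 0.22, SE 0.08). On the far side of Akr1b3, Slc35b4, a sugar nucleotide transporter 125 kb away, was at 2.39 and 2.28 FPKM in vehicle and at 2.19 and 2.14 FPKM in PCN. Akr1b7, Akr1b8 and Akr1b10 are close copies, so that their separate values are uncertain. Over 948 aligned coding bases Akr1b7 and Akr1b10 were identical at 89.2%, Akr1b7 and Akr1b8 at 84.8% and Akr1b8 and Akr1b10 at 84.7%, while Akr1b3 shared 71.6% to 72.3% with the other 3. The sources do not say how the authors' estimates divided reads between such copies. The first 60 coding bases of the 3 copies are printed, with capitals at the 10 positions where they are not all alike. In this stretch Akr1b7 is closer to Akr1b8 than to Akr1b10, whereas over all 948 bases it was closer to Akr1b10.
Akr1b7: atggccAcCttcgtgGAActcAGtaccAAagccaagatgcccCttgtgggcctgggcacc
Akr1b10: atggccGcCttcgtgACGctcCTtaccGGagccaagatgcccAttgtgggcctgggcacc
Akr1b8: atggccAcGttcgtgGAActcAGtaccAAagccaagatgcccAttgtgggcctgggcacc

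The start regions of Akr1b7 (plus strand, chr6:34412112-34412411) and Akr1b8 (plus strand, chr6:34353896-34354195) are printed because these genes had the largest log2 differences of the group. Capitals mark the hexamer AGGTCA or AGTTCA, read on either strand, which nuclear receptors such as PXR bind as a pair. Akr1b7 held a single TGACCT at position -248 and Akr1b8 a single TGAACT at position -76, counted from the annotated start. Akr1b10 held TGACCT at position -215.
Akr1b7 start region: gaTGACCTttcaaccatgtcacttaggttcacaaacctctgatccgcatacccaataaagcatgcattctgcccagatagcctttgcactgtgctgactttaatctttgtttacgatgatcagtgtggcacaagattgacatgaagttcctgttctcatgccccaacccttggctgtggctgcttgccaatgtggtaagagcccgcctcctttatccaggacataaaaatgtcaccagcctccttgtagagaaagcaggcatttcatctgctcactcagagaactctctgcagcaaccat
Akr1b8 start region: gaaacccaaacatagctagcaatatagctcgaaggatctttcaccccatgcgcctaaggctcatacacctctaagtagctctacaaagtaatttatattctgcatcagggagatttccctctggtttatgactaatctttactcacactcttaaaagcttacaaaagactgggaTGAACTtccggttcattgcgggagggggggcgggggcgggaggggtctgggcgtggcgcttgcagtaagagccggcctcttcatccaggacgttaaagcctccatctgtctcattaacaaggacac

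**Figure D3:**
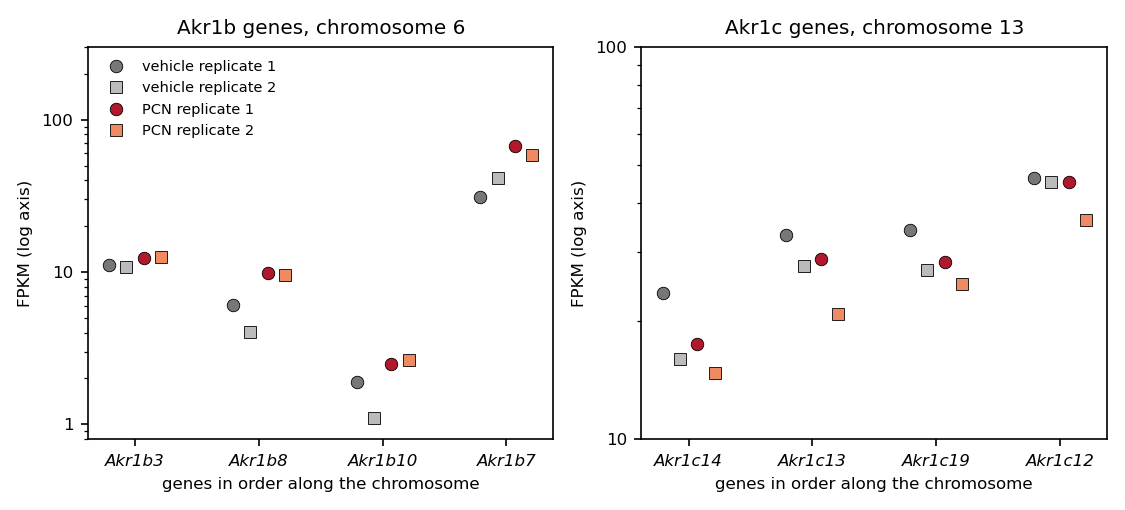
FPKM on a log axis in each of the 4 libraries for the Akr1b genes of chromosome 6 (left) and the Akr1c genes of chromosome 13 (right), with genes in their order along the chromosome, grey for vehicle and red for PCN, circles for replicate 1 and squares for replicate 2. All 4 Akr1b genes have both PCN libraries above both vehicle libraries, and the groups overlap for 3 of the 4 Akr1c genes.

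All 7 other aldo-keto reductases had negative log2 differences, as did 5486 of all 11103 genes. Akr1c enzymes reduce steroid ketones and other carbonyls, and their 4 measured genes lie within 230 kb of chromosome 13 (chr13:4049011-4279433). All 4 had a negative log2 difference, from -0.18 for Akr1c12 to -0.29 for Akr1c13, and none had an unadjusted p under 0.05. Their sum was 137 and 116 FPKM in vehicle and 120 and 96.7 FPKM in PCN, so that PCN replicate 1 lay above vehicle replicate 2. Akr1c12 and Akr1c13 were identical at 96.2% of 969 coding bases, and their separate values are uncertain for that reason. Akr1e1, which reduces 1,5-anhydrofructose, was at 15.3 and 12.2 FPKM in vehicle and at 11.2 and 9.70 FPKM in PCN (-0.36, SE 0.16, unadjusted p = 0.072, and -0.20 without vehicle replicate 1). Akr7a5, which reduces succinic semialdehyde and aflatoxin dialdehyde, had a log2 difference of -0.16 (SE 0.09) without overlap. Akr1a1, the aldehyde reductase needed for vitamin C synthesis in mice, was the most abundant member at 333 and 320 FPKM in vehicle and at 336 and 297 FPKM in PCN. Its log2 difference was -0.05, with a 95% confidence interval of -0.26 to 0.16. Without PCN replicate 2 it was 0.04, and it was 0.0063 with each library scaled to the same sum.

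Among aldehyde dehydrogenases, the Aldh1a genes had positive log2 differences in 4 of 4 cases, as did 5617 of all 11103 genes. Aldh1a1, Aldh1a2 and Aldh1a3 oxidise retinal to retinoic acid. Aldh1a3 was at 5.55 and 4.94 FPKM in vehicle and at 8.95 and 10.7 FPKM in PCN, a ratio of 1.88 (log2 difference 0.79, SE 0.15, unadjusted p = 0.004, adjusted p = 0.209). Aldh1a2 was at 3.83 and 4.55 FPKM in vehicle and at 5.92 and 6.03 FPKM in PCN (0.43, SE 0.16, unadjusted p = 0.040, adjusted p = 0.501). Both were low genes with groups that did not overlap. Aldh1a1, the most abundant of the 4, was at 54.1 and 60.7 FPKM in vehicle and at 72.3 and 53.4 FPKM in PCN, so that the PCN libraries lay on both sides of vehicle (0.12, 95% confidence interval -0.30 to 0.53). Without PCN replicate 1 its log2 difference was -0.10. Aldh1a7, a neighbour of Aldh1a1 on chromosome 19 with 91.6% identical coding bases, was at 9.78 and 12.3 FPKM in vehicle and at 13.5 and 12.2 FPKM in PCN (0.21), and reads of this pair may have been divided unevenly. The sum of the 4 genes, 73.2 and 82.4 FPKM in vehicle and 101 and 82.4 FPKM in PCN, overlapped between groups. Dhrs3, which turns retinal back into retinol, was at 11.1 and 13.4 FPKM in vehicle and at 10.6 and 9.84 FPKM in PCN (-0.24, SE 0.14, unadjusted p = 0.152).

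Aldh1b1, a mitochondrial enzyme that oxidises acetaldehyde and other short aldehydes, was the second most abundant member and had the largest difference in FPKM. It was at 355 and 323 FPKM in vehicle and at 287 and 235 FPKM in PCN, from 339 ± 22.8 to 261 ± 36.6 FPKM (SD, n = 2). The log2 difference was -0.38 (SE 0.12, 95% confidence interval -0.68 to -0.08, unadjusted p = 0.022, adjusted p = 0.406). PCN replicate 2 was the lowest library, and without it the difference was -0.24. The family sum moved with this gene. It was 816 and 798 FPKM in vehicle and 781 and 700 FPKM in PCN, whereas without Aldh1b1 it was 460 and 475 FPKM in vehicle and 495 and 465 FPKM in PCN. Aldh2, the other mitochondrial acetaldehyde dehydrogenase, was at 122 and 129 FPKM in vehicle and at 111 and 117 FPKM in PCN (-0.14, 95% confidence interval -0.32 to 0.04). Summed over transcripts, both genes were thus lower without overlap, Aldh2 by less than Aldh1b1, and the difference between them was not tested. The most abundant Aldh2 transcript alone was at 49.8 and 46.1 FPKM in vehicle and at 47.6 and 46.8 FPKM in PCN. Its groups overlapped, with a log2 difference of -0.02, whereas the most abundant Aldh1b1 transcript gave -0.38.

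Of the remaining aldehyde dehydrogenases, Aldh9a1, which acts in carnitine synthesis, was at 117 and 114 FPKM in vehicle and at 135 and 126 FPKM in PCN (0.17, SE 0.07, unadjusted p = 0.060). Aldh3a2, the fatty aldehyde dehydrogenase, had a log2 difference of 0.19 (SE 0.08, unadjusted p = 0.065), again without overlap. Aldh7a1, which acts in lysine breakdown, was at 5.34 and 5.86 FPKM in vehicle and at 4.36 and 3.89 FPKM in PCN (-0.37, SE 0.15, unadjusted p = 0.064). Aldh1l1, which oxidises 10-formyltetrahydrofolate, was at 40.7, 40.9, 38.9 and 26.9 FPKM in vehicle replicates 1 and 2 and PCN replicates 1 and 2 (-0.32, SE 0.18), so that PCN replicate 2 alone stood off, and without it the difference was -0.07. The other 4, Aldh5a1, Aldh16a1, Aldh3b1 and Aldh6a1, had overlapping groups and log2 differences from -0.07 to 0.11.

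Alcohol dehydrogenases were represented by 3 neighbouring genes on chromosome 3 (chr3:138260991-138455499). Adh6a had the most negative log2 difference of all members. It was at 3.84 and 7.88 FPKM in vehicle and at 2.47 and 1.58 FPKM in PCN, with a ratio of group means of 0.346 (log2 difference -1.13, SE 0.35, unadjusted p = 0.022, adjusted p = 0.413). Vehicle replicate 2 set much of this size. Without it the difference was -0.69 with an unadjusted p of 0.073, and with the mean level of the smooth muscle markers as a covariate it was -0.41 with an unadjusted p of 0.443. Adh1, the class that oxidises ethanol and retinol, was at 10.6 and 14.5 FPKM in vehicle and at 12.2 and 9.40 FPKM in PCN (-0.19), also with its highest value in vehicle replicate 2. Adh5, which removes formaldehyde as a glutathione adduct, was at 28.0 and 27.3 FPKM in vehicle and at 28.2 and 26.8 FPKM in PCN (-0.01, 95% confidence interval -0.23 to 0.21). The difference between Adh6a and its neighbours was not tested.

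Among short-chain reductases only Dhrs1 had an unadjusted p under 0.05. Dhrs4, a reductase of retinal and other carbonyls that lies with Dhrs1 within 267 kb of chromosome 14, was at 37.8 and 34.5 FPKM in vehicle and at 39.4 and 38.9 FPKM in PCN (0.11, SE 0.09). Dhrs11, whose human counterpart reduces keto groups of steroids, was the most abundant of the group at 110 and 97.5 FPKM in vehicle and at 97.6 and 89.8 FPKM in PCN (-0.15, 95% confidence interval -0.39 to 0.09). Cbr1, a carbonyl reductase of quinones and prostaglandins, was at 51.1 and 48.5 FPKM in vehicle and at 47.9 and 46.7 FPKM in PCN (-0.07). Its neighbour Cbr3, with 77.1% identical coding bases, was at 1.55 to 1.73 FPKM in all libraries. The 9 genes of this group other than Dhrs1 had log2 differences from -0.24 to 0.11.

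Hydroxysteroid dehydrogenases were positive in 5 of 6 cases, against 5617 of all 11103 genes. Hsd17b2, which inactivates estradiol and testosterone by oxidation, was at 41.7 and 34.4 FPKM in vehicle and at 57.4 and 53.4 FPKM in PCN. Both PCN libraries were above both vehicle libraries, with a ratio of 1.46 (log2 difference 0.54, SE 0.12, 95% confidence interval 0.24 to 0.84, unadjusted p = 0.006, adjusted p = 0.243). With the smooth muscle covariate the difference was 0.25. Its neighbours on chromosome 8 were also above vehicle in both PCN libraries. Sdr42e1, a further short-chain dehydrogenase, was at 4.31 and 4.73 FPKM in vehicle and at 7.41 and 7.08 FPKM in PCN (0.58, SE 0.14, unadjusted p = 0.010). Mphosph6, an RNA exosome partner, was at 15.9 and 13.6 FPKM in vehicle and at 22.1 and 19.6 FPKM in PCN (0.48, SE 0.13, unadjusted p = 0.013). Hsd11b1, which restores active glucocorticoid from its keto form, was at 6.51 and 8.25 FPKM in vehicle and at 9.52 and 9.82 FPKM in PCN (0.36, SE 0.15, unadjusted p = 0.069). This difference was 0.21 without vehicle replicate 1, and it was -0.07 for the most abundant transcript on its own. The sum includes a transcript at 0.697 and 8.53e-17 FPKM in vehicle and 2.69 and 4.35 FPKM in PCN. Its group mean was above 1 FPKM only in PCN, so it was in the table through the group where it was high. Another, at 0.392 and 2.26 FPKM in vehicle and 0 FPKM in PCN, was there only through vehicle. The gene's difference thus rests in part on which transcripts were kept. Hsd11b1 overlaps Lamb3 on the opposite strand, and reads of such pairs cannot be told apart where strand was not counted. Lamb3 was at 33.3 and 31.0 FPKM in vehicle and at 48.5 and 35.7 FPKM in PCN (log2 difference 0.36, SE 0.16), a higher level with a similar log2 difference. The part of Lamb3 reads in the Hsd11b1 values was not tested.

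The abundant Hsd17b11, a lipid droplet enzyme, was at 133 and 121 FPKM in vehicle and at 136 and 122 FPKM in PCN (0.02, 95% confidence interval -0.21 to 0.26). Hsd17b12, which acts in elongation of very long fatty acids, was at 71.2 and 63.6 FPKM in vehicle and at 64.3 and 76.8 FPKM in PCN (0.06, 95% confidence interval -0.24 to 0.36). Both had overlapping groups, and the sign of each difference changed without vehicle replicate 2 (-0.05 and -0.02). Hsd17b10, a mitochondrial enzyme of isoleucine breakdown, and Hsd17b13 also overlapped, at 0.09 and -0.16.

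By level, 5 members had a mean above 100 FPKM (Akr1a1, Aldh1b1, Hsd17b11, Aldh9a1 and Aldh2) and 13 had a mean below 10 FPKM. Akr1a1 and Aldh1b1 together held 28.9% to 34.1% of member FPKM in each library, and the 8 most abundant members held 60.6% to 64.2%. Of the 7 members past 0.5 in log2 difference, the only ones above 20 FPKM in every library were Akr1b7 and Hsd17b2. Transcript estimates add a further limit. Among the 78 member transcripts 13, in 13 genes, had in some library exactly the value of another gene's transcript (16.7%, against 17.4% of all transcripts), and 16 of 44 members overlap another annotated gene.

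**Figure D4:**
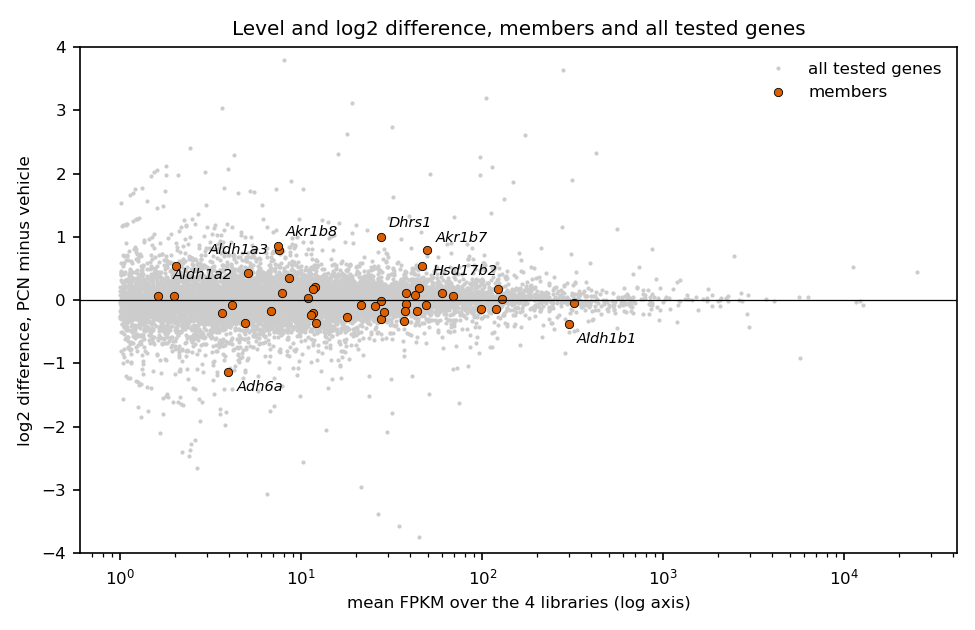
Mean FPKM over the 4 libraries (x, log axis) against the log2 difference, PCN minus vehicle (y). The 11103 tested genes are in grey and the 44 members in orange, with the 8 members of unadjusted p under 0.05 named. Of the tested genes 9, all lower in PCN by more than 4, are not drawn. Members with a mean above 100 FPKM lie between -0.38 (Aldh1b1) and 0.17 (Aldh9a1).

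Start regions were matched for 39 of 44 members (44 regions, RefSeq, GRCm38.p6, 250 bases before to 50 after the start), not for Akr1b3, Aldh1a3, Aldh2, Aldh7a1 and Hsd17b2. They were searched on both strands for AGTTCA or AGGTCA in a tandem with 3 or 4 bases between them on the same strand, and for the pair facing away from each other with 6 bases between, the forms in which PXR is known to bind. None of the 44 held any of the 3 forms, which occurred in 0.0122%, 0.0274% and 0.00913% of 32851 start regions. At such shares a match among 44 regions was unlikely for any set, so this search cannot show whether PXR binds near members. The single hexamer AGTTCA was in 7 of the 44 (15.9%, against 13.99% of all), AGGTCA in 7 (15.9%, against 16.3%), and TGACNNNGC, the core that NRF2 binds, in 7 (15.9%, against 12.4%). The letters of TGACNNNGC can overlap TGACCT, the other strand of AGGTCA. Of the 8 members with an unadjusted p under 0.05, Adh6a and Aldh1a2 held TGACNNNGC, Akr1b7 held AGGTCA and Akr1b8 held AGTTCA. The median G or C content was 51.0% in member regions and 52.7% in all. More distant sequence was not searched.

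Related enzymes outside the symbol rule were counted from a list of 56 genes, of which 40 were tested. At an unadjusted p under 0.05 3 were higher (7.5%, against 5.25% of all genes) and 7 lower (17.5%, against 4.11%), and none passed the adjusted threshold. Rdh9 and Rdh7, short-chain enzymes that oxidise retinols and hydroxysteroids, were the lowest. Rdh9 was at 22.8 and 24.1 FPKM in vehicle and at 10.3 and 8.61 FPKM in PCN (log2 difference -1.23, SE 0.13, adjusted p = 0.065). Rdh7 was at 3.18 and 3.10 FPKM in vehicle and at 0.828 and 0.860 FPKM in PCN (-1.17, SE 0.19, adjusted p = 0.150). Gpd1, glycerol-3-phosphate dehydrogenase, was at 97.0 and 98.2 FPKM in vehicle and at 77.8 and 76.5 FPKM in PCN (-0.34). Aoc1, the diamine oxidase that breaks down histamine, was at 379 and 325 FPKM in vehicle and at 262 and 234 FPKM in PCN (-0.50). The 3 higher genes were Sdr42e1, Sdr39u1 and Retsat, the last a retinol saturase, at 0.58, 0.52 and 0.42. Of the 5 genes the rule left out, Aldh4a1, of proline breakdown, was at 13.4 and 13.6 FPKM in vehicle and at 5.52 and 5.28 FPKM in PCN (-1.18, SE 0.12, adjusted p = 0.065), and Hsd17b4, of peroxisomal fatty acid oxidation, was at 44.3, 42.0, 54.7 and 51.3 FPKM in the same order (0.29). For scale, B3galt5 and Gsta1, 2 of the PXR reference genes, passed the threshold with log2 differences of 3.12 and 2.27, each larger than that of any member.

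Because vehicle replicate 2 stood apart, the 8 members were also fitted without it, with the lone vehicle library assumed to vary as the PCN libraries did. The log2 differences were 0.88 for Dhrs1, 0.61 for Akr1b8, 1.00 for Akr1b7, 0.72 for Aldh1a3, 0.40 for Hsd17b2, 0.53 for Aldh1a2, -0.45 for Aldh1b1 and -0.69 for Adh6a. All kept their direction, but leaving out 1 library cannot reverse a gene whose groups do not overlap, so only the sizes are informative. Counts of members at an unadjusted p under 0.05 moved when 1 library was left out. They are not given, because each such fit leaves 1 library in a group. With the smooth muscle level as a covariate 3 members were higher and 5 lower at an unadjusted p under 0.05, against 362 and 452 of all 11103 genes. Dhrs1 was then at 0.77, Akr1b7 at 1.15, Akr1b8 at 0.37 and Aldh1b1 at -0.59. The smooth muscle level itself differed between the groups, with a mean log2(FPKM + 1) of 4.56 and 5.51 in vehicle and 3.90 and 4.18 in PCN. That fit, which leaves 1 residual degree of freedom, therefore cannot tell the part of smooth muscle from that of PCN. The part of smooth muscle in these differences was not tested beyond it.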

How the data were processed

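The authors deposited 1 table of FPKM per transcript for 2 vehicle and 2 PCN libraries of mouse ileum, made with a SMARTER kit per the labels. The submitters' processing notes name the build mm10. For the aligner and the estimator, a name was not given in the sources used here, although transcript names have the form that Cufflinks writes. The study's supplementary methods describe colon libraries aligned to a pig genome, in conflict with these labels, and were not used as the source. Every transcript had a larger group mean above 1 FPKM (smallest 1.000054), so low transcripts were not analysed here. Read numbers were unknown, and no counting intervals are given.

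For each gene symbol, FPKM were added up over transcripts. Where the mean over the 4 libraries reached 1 FPKM, the gene entered limma (3.58.1, R 4.3.3) with a mean-variance trend on log2(FPKM + 1), which understates changes of low genes, two-sided, with Benjamini-Hochberg adjustment and a threshold of 0.05. The fit left 2 residual degrees of freedom. Values per library are given for members with an unadjusted p under 0.05, the 8 most abundant, and the 3 most positive and 3 most negative without overlap. Other genes are given for their place beside these or their role. Members and lists were chosen with earlier results of these data known. Gene models came from GENCODE M21, start regions from RefSeq, and coding identity from global alignments (Biopython 1.88). Alternatives were other pseudocounts, filters, scalings, no trend, a replicate block, single transcripts, a smooth muscle covariate and leaving out each library.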

Additional observations from a re-analysis of the deposited data

How the results depend on the processing

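The 8 members with an unadjusted p under 0.05 kept their direction under every alternative run. For the fits that left out 1 library or changed the pseudocount no other outcome was possible, because the groups of these 8 do not overlap. Other filters, no mean-variance trend and a replicate block leave the log2 differences as they are, so they could not change direction either. Adh6a, Aldh7a1, Akr1b10, Aldh5a1, Cbr3, Cbr4 and Dhrs13 had no value with a minimum mean of 5 FPKM, which left 37 members. Over all genes 9 were higher and 6 lower past the adjusted threshold. These counts were 34 and 22 with a minimum mean of 5 FPKM, 24 and 13 with libraries rescaled to equal sums, 2 and 0 with no mean-variance trend, 1 and 0 for single transcripts and 0 and 0 with the smooth muscle covariate, and 5 were higher with a pseudocount of 0.1. The members past the adjusted threshold went from 0 to 1 (Dhrs1) with the minimum mean of 5 FPKM. Members lower at an unadjusted p under 0.05 went from 2 to 1 with that minimum (all genes 354 of 7476) and with rescaling (267 of 11103). With the smooth muscle covariate 3 members were higher and 5 lower (all genes 362 and 452 of 11103).

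With a replicate block 39 genes were higher and 21 lower past the adjusted threshold, and 1 member (Dhrs1, adjusted p = 0.048) passed it. At an unadjusted p under 0.05, 4 members were lower, against 540 of all 11103 genes. The replicate numbers do not pair the libraries by the labels, and deviations of same-numbered libraries correlated at 0.034 over 11103 genes.

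Leaving out each library in turn gave 0 to 8 higher and 0 to 12 lower genes past the adjusted threshold, and 0 to 4 members lower at an unadjusted p under 0.05. Over all alternatives 16 members changed sign at least once, each with a log2 difference within 0.36 of 0, and 32 of 44 moved by over 1.5 times when 1 library was left out. Among them were 4 of the most abundant, with a range of -0.14 to 0.039 for Akr1a1, -0.059 to 0.10 for Hsd17b11, -0.065 to 0.19 for Hsd17b12 and -0.10 to 0.33 for Aldh1a1 over these fits. Akr1a1 was 0.0063 with rescaling, and under the muscle covariate Hsd17b11 was -0.16 and Hsd17b12 -0.023. The cause was not tested.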
